A study of Mus musculus with 3 samples.

Results

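FOXF1 binding was examined at 6 receptor genes, Ackr3, Ackr1, Ackr2, Ackr4, Ccrl2 and Cxcr4, out of 21887 protein-coding genes of the RefSeq table. The genes were listed by name, and each received the FOXF1 sites shared by both replicates that lay inside it, or within 100 kb of it when its end was the nearest protein-coding gene end. This gave 29 of the 51013 shared sites. FOXF1 is a forkhead transcription factor of the lung mesenchyme and of lung endothelium. It was immunoprecipitated from whole lungs of C57BL/6 mice, wild type and at embryonic day 18.5, in 2 biological replicates that each pooled 3 lungs, and 1 input of 2% from the same stage served as the control. Each replicate took 10 µg of chromatin, fixed in 1% formaldehyde, and 7 µg of antibody. All samples were unmanipulated lungs of 1 stage, so there was no treated or mutant group to compare. The lungs hold many cell types in bulk, and the summit lists carry no expression values, so neither the tissue nor the bound cells could be checked by markers.

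The summit lists held 107378 summits in replicate 1 and 61172 in replicate 2 on the nuclear chromosomes, with median scores of 19.9 and 17.6. A score is the authors' −log10 significance of a summit against the input. It depends on sequencing depth, which the sources used here do not give, so each site is also given by its rank within its own list. A shared site is a pair of summits, 1 from each replicate, that are each other's nearest and at most 100 bp apart. Because the sites were used to choose what is described, the counts and scores below carry no test.

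Atypical chemokine receptors are relatives of the chemokine receptors that bind chemokines without the usual G protein signal. They take up, carry or break down their ligands and so shape the gradients that guide cells. ACKR3 and CXCR4 share the ligand CXCL12, a chemokine needed for vessel growth and for the homing of blood-forming cells, and CXCR4 is the receptor of the pair that signals through G proteins. ACKR1 on venules and red cells, ACKR2 on lymphatic endothelium and ACKR4 on lymphatic and stromal cells handle inflammatory or homeostatic chemokines. CCRL2 is a related receptor that binds chemerin and presents it to other cells.

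Sites were found at 5 of the 6 genes, against 60.7% of all protein-coding genes with at least 1. Ackr3 had 8 sites, Ackr2 and Cxcr4 had 7 each, Ccrl2 had 4, Ackr4 had 3 and Ackr1 had 0. The median protein-coding gene had 1. At least 8 sites were assigned to 7.01% of protein-coding genes, at least 7 to 8.63%, at least 4 to 17.3% and at least 3 to 23.7%. Each of the 5 bound genes therefore had more sites than at least 76.3% of all genes, and Ackr1 lay at the bottom.

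**Figure D1:**
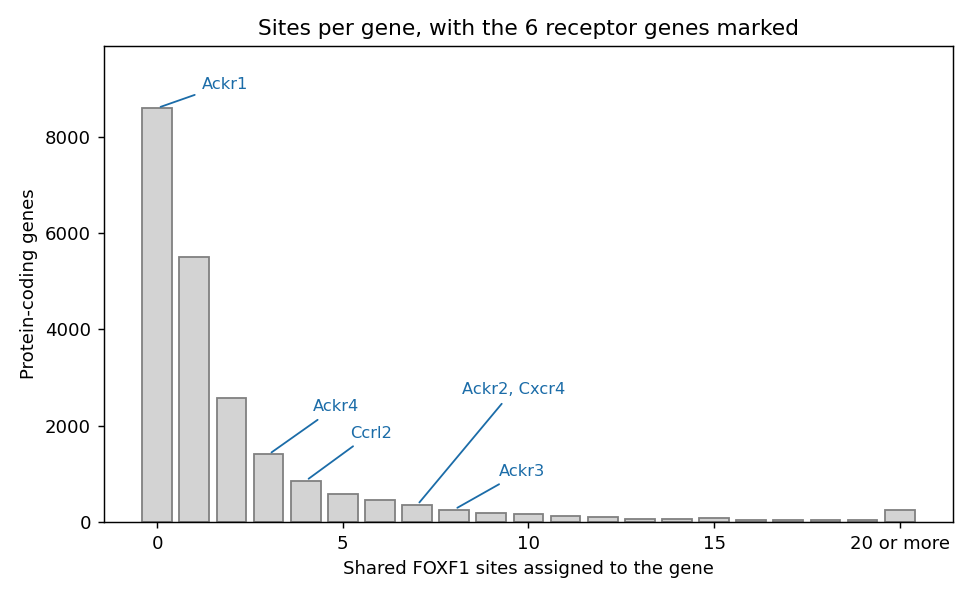
Number of shared FOXF1 sites assigned to a gene (x axis, with 20 or more in the last bar) and the number of protein-coding genes with that many (y axis, grey bars). Ackr1 sits in the bar of genes with 0 sites, Ackr4 and Ccrl2 at 3 and 4, and Ackr2, Cxcr4 and Ackr3 at 7, 7 and 8.

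A count depends on how much sequence lies nearest to a gene. The stretch from which a site could be assigned covered 189 kb for Cxcr4, 137 kb for Ackr3, 46.4 kb for Ackr4, 38.7 kb for Ccrl2, 36.7 kb for Ackr1 and 34.6 kb for Ackr2, against a median of 49.5 kb over protein-coding genes. Per 100 kb of this stretch, Ackr2 had 20.2 sites, Ccrl2 had 10.3, Ackr4 had 6.46, Ackr3 had 5.84 and Cxcr4 had 3.69, while the median over all genes was 1.55. Ackr2 was denser than 98.5% of protein-coding genes and Ccrl2 denser than 92.9%. Cxcr4, with as many sites as Ackr2, was denser than 69.0% of them. The order by number and the order by density were thus different. The median distance between neighbouring sites was 17.8 kb at Cxcr4 and 4.88 kb at Ackr3.

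Cxcr4 encodes the signalling receptor for CXCL12 and spans positions 128588199 to 128592299 on the minus strand of mouse chromosome 1 (build mm10, the assembly GRCm38). Its neighbouring protein-coding genes lie 171 kb to the left (Dars) and 681 kb to the right (Thsd7b). Of its 7 sites, 6 lay upstream of the gene, 1 lay downstream and 0 lay inside. The site at its start, at 128592312, was 13 bp before the annotated transcription start, and scored 70.9 in replicate 1 and 50.9 in replicate 2. It ranked 14238th and 7577th in the lists, and no other site of Cxcr4 ranked as high in replicate 2. In replicate 1 the highest Cxcr4 site was instead at 128633962, 41663 bp upstream, with scores of 104.4 and 45.6 and ranks of 6876 and 9358. By mean rank this distal site led, and the start site came next.

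The other upstream sites of Cxcr4 lay 20985, 46746, 61664 and 98219 bp before the start. Their scores in replicate 1 were 78.1, 34.5, 74.8 and 18.4, and in replicate 2 they were 32.0, 9.88, 36.4 and 7.23. The site on the other side, at 128586446, lay 1753 bp beyond the downstream end, with 63.0 and 22.1. The sites of Cxcr4 were thus strung along 104 kb, and none of them reached the highest 10% of both lists. The outermost site, at 98219 bp, was just within the 100 kb limit of assignment. The next one, just beyond it, lay 112951 bp upstream with scores of 85.9 and 38.2, well above the site within.

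Ackr3, the scavenger of CXCL12, spans positions 90203980 to 90215724 on the plus strand of chromosome 1. Its nearest protein-coding neighbours are Iqca, 50.5 kb to the left, and Cops8, 387 kb to the right. Of its 8 sites, 3 lay inside the gene and 5 lay downstream, with 0 upstream. At Cxcr4 most sites lay upstream instead. Iqca left Ackr3 less room for sites upstream than downstream, and the part of this in the contrast was not tested. The site at 90204030 lay 50 bp after the transcription start and had scores of 41.1 and 29.9. Sites at 1543 and 2947 bp after the start were lower, with 31.0 and 8.36 at the nearer one and 11.2 and 6.67 at the farther one. A single site beyond the gene, 10114 bp from its downstream end, had scores of 24.3 and 6.02.

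A group of 4 sites lay 61943 to 74894 bp beyond the downstream end of Ackr3, all of them inside the long noncoding RNA gene 2700003A03Rik. The highest, at 90282545, had scores of 190.2 and 102.2, ranks of 1016 and 800, and the 836th place among the 51013 shared sites by mean rank. It lay 2535 bp from the listed start of 2700003A03Rik. The other 3 sites of the group had scores of 63.0, 47.9 and 49.9 in replicate 1 and of 25.3, 14.8 and 17.6 in replicate 2. The assignment of these 4 sites to Ackr3 rests on the use of protein-coding gene ends alone. By the ends of all annotated genes they went to the noncoding gene, and Ackr3 kept 4 sites. The next site of Ackr3 beyond the 100 kb limit was 189758 bp away, with scores of 161.8 and 87.1.

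The sequences before the starts of Cxcr4, Ackr3 and Ackr2 are shown because each of these genes had a shared site within 100 bp of its start, as did 27.5% of the 17492 protein-coding genes with a listed start. Within 250 bp the count was 4 of the 6 genes, Ccrl2 being the fourth, against 36.3%, and within 1000 bp it was the same 4 genes, against 43.1%. Each sequence is the 250 bases before the start from RefSeq (GRCm38.p6), 5′ to 3′ on the gene's strand. Capitals mark the letters AAACA or their complement TGTTT, the core shared by the forkhead motifs GTAAACA and ATAAACA.
Cxcr4, chr1:128592300-128592549, minus strand: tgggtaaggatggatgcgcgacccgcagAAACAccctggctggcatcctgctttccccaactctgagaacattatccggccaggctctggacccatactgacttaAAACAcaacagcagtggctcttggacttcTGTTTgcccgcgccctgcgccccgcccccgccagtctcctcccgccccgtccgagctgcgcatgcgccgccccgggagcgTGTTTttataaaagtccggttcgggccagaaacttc
Ackr3, chr1:90203730-90203979, plus strand: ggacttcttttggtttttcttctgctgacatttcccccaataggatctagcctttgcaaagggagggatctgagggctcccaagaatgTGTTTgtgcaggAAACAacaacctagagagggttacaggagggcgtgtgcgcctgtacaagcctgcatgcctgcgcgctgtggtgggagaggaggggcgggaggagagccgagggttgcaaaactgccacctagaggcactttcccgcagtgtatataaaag
Ackr2, chr9:121898105-121898354, plus strand: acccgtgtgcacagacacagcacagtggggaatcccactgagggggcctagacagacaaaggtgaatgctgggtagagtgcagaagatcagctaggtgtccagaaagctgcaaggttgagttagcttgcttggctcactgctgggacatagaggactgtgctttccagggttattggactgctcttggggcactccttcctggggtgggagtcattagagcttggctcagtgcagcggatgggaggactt

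The full forkhead letters were absent from all of these windows. Neither GTAAACA nor ATAAACA, searched on both strands, occurred in the 250 bases before any of the 8 listed starts of the 6 genes, and 6.07% of the 21263 such windows of protein-coding genes held one of them. The shorter core AAACA, which both motifs contain, occurred 4 times before Cxcr4, 2 times before Ackr3 and 1 time before Ackr1, and it was not found before Ackr2, Ackr4 or Ccrl2. It occurs in 41.9% of all such windows. A match is a description of the letters and not a binding site. At Ackr3, Ackr2 and Ccrl2 the summits near the start lay after it in both replicates, outside the searched bases. At Cxcr4 this held for replicate 1. The absence of a motif therefore does not describe the sequence under those summits.

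At Cxcr4 the summit of replicate 1 lay 11 bp after the start and that of replicate 2 lay 37 bp before it, next to the TGTTT at positions −36 to −32. The Cxcr4 window also held TATAAA at −30 to −25 and 3 copies of CCGCCC. At Ackr3 the summits lay 39 and 61 bp after the start, and the window held TATAAA at −8 to −3 and 1 copy of GGGCGG. At Ackr2 they lay 63 and 71 bp after the start, and the window before the start held neither of these motifs. TATAAA, searched on both strands, occurred in 11.6% of all windows, and GGGCGG or its complement CCGCCC occurred in 42.6%. Cxcr4 had 19 CpG pairs in its 250 bases, Ackr3 had 7 and Ackr2 had 2, against a median of 10 with quartiles of 3 and 19 over all windows. Sites at the starts of these genes thus lay beside windows of very different CpG content.

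Ackr2, a scavenger of inflammatory CC chemokines, spans positions 121898355 to 121911075 on the plus strand of chromosome 9. Its protein-coding neighbours are Higd1a, 40.6 kb to the left, and Cyp8b1, 3.28 kb to the right. All 7 of its sites fell in a run of 16.2 kb that ended at its start, with 6 upstream, 1 inside and 0 downstream. The median distance between neighbouring sites in the run was 1.36 kb. The farthest upstream site, at 121882239 and 16116 bp before the start, was the highest, with scores of 219.9 and 98.8 and ranks of 432 and 940. It held the 640th place among all shared sites by mean rank.

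The next sites of Ackr2 lay 7475, 4946, 3659, 2646 and 1283 bp before the start. Their scores in replicate 1 were 106.0, 66.2, 30.5, 86.0 and 52.0, and in replicate 2 they were 46.0, 30.3, 10.2, 38.0 and 19.1. The site at 121898422, 67 bp after the start, had scores of 77.0 and 40.0. No annotated gene covered the upstream sites, and the nearest start of another gene was at least 19233 bp from each of them. All 7 sites scored at least 10 in both replicates, so the count was the same with that minimum.

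Ackr4, a scavenger of the homeostatic chemokines CCL19, CCL21 and CCL25, held the highest site of all 6 genes. The gene spans positions 104097682 to 104126643 on the minus strand of chromosome 9 and lies wholly inside Acad11, an acyl-CoA dehydrogenase gene whose listed start lies on the plus strand. The site at 104098490 lay 808 bp inside the downstream end of Ackr4, 28153 bp from its start. It had scores of 289.9 and 178.3 and ranked 32nd of 107378 summits in replicate 1 and 6th of 61172 in replicate 2. By mean rank it was the 19th of the 51013 shared sites. A site among the 100 highest was held by 0.347% of protein-coding genes. Among the 1000 highest of the 51013 shared sites were 3 of the 29 sites, those leading Ackr4, Ackr2 and Ackr3. Counted by gene, 3 of the 6 genes held such a site, against 3.07% of protein-coding genes.

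The position of this site did not single out Ackr4 as its gene. It lay inside both Ackr4 and Acad11, and the nearest listed start of another gene, that of Acad11, was 34766 bp away. The other sites of Ackr4, at 104091967 and 104088890, lay 5715 and 8792 bp beyond its downstream end, also inside Acad11. Their scores were 93.8 and 35.6 at the nearer one and 129.8 and 56.3 at the farther one. Every summit assigned to Ackr4 in either replicate was part of a shared site, 3 in each list. No site lay within 1 kb of the start of Ackr4.

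Ccrl2 spans positions 111054834 to 111057518 on the minus strand of chromosome 9, with Ltf 12.1 kb to the left and Lrrfip2 60.0 kb to the right. It has 3 listed starts. The site at 111057053 lay 191 bp after the nearest of them, with scores of 78.1 and 40.9. The highest of its 4 sites was at 111060789, 3271 bp upstream, with scores of 126.7 and 56.4 and ranks of 4290 and 5822. The remaining sites, 4008 and 14737 bp upstream, had 38.0 and 5.48 at the nearer one and 23.0 and 3.56 at the farther one. These last 2 sites ranked in the upper 29.8% and 44.9% of the list of replicate 1, but only in the upper 95.3% and 99.5% of that of replicate 2. With a score of at least 10 in both replicates, Ccrl2 kept 2 sites.

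Ackr1, the Duffy receptor, which carries chemokines across venules and on red cells, had 0 sites. It spans positions 173331886 to 173333503 on the minus strand of chromosome 1, and its left end lies close to that of Cadm3, which overlaps it. The nearest summit of replicate 1 was 100090 bp away, with a score of 15.5, and that of replicate 2 was 157889 bp away, with 16.2. The neighbourhood was thus empty of summits in both lists out to 100 kb, whether shared or not. A region with no summit of either replicate inside the gene or within 100 kb surrounded 12.1% of protein-coding genes. The lists give no depth, so a count of 0 says only that no peak was called there.

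**Figure D2:**
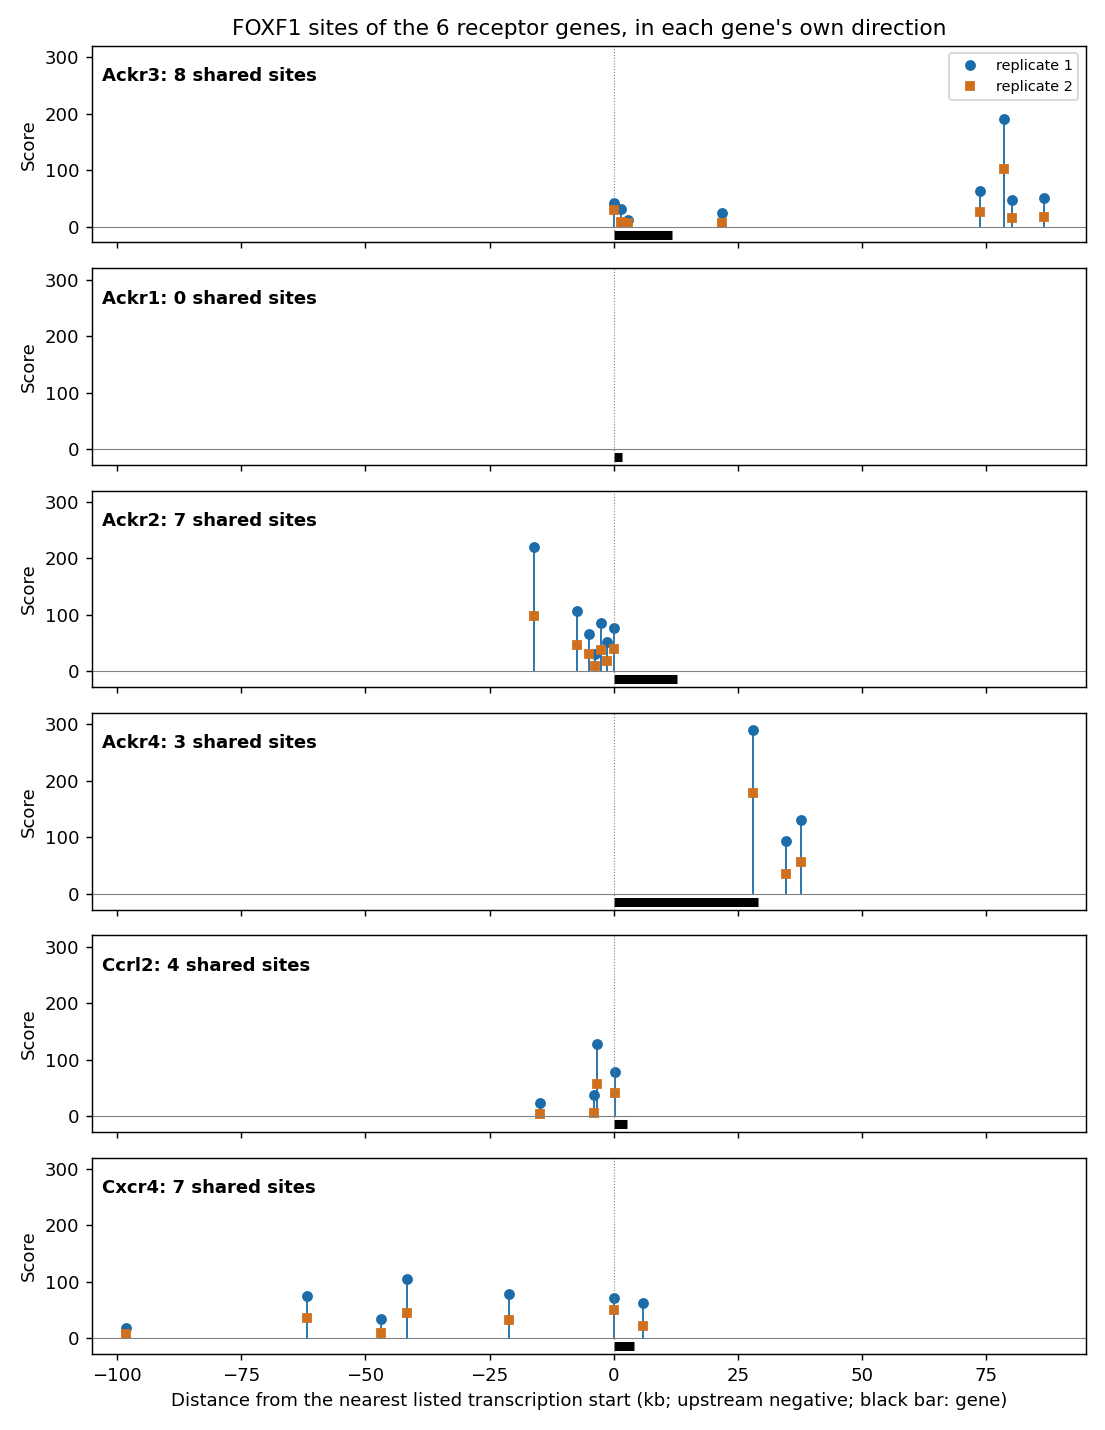
Shared FOXF1 sites of each gene, 1 panel per gene, by distance from its nearest listed transcription start in kb (x axis, upstream negative, black bar for the gene) and by the authors' −log10 score (y axis; blue circles for replicate 1, orange squares for replicate 2). Sites lie mainly upstream of Ackr2 and Cxcr4 and mainly downstream of Ackr3 and Ackr4. The tallest is the Ackr4 site at 289.9 and 178.3, and the Ackr1 panel is empty.

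Across the 29 sites, 15 lay upstream of their gene, 8 downstream and 6 inside it. Of the 37254 assignments of shared sites to protein-coding genes with a listed start, 21.4% were upstream, 15.0% downstream and 63.6% inside. The 6 genes are 1618 to 28962 bp long, and the part of gene length in these shares was not tested. Within 1 kb of a start lay 4 of the 29 sites, or 13.8%, against 20.6% of all assignments. The sites of Ackr2, Ccrl2 and Cxcr4 were mainly upstream, and those of Ackr3 and Ackr4 mainly downstream. The room on each side differed, because a site between neighbouring genes goes to the nearer end. Cyp8b1 lies 3.28 kb downstream of Ackr2, Ltf 12.1 kb downstream of Ccrl2, and Iqca 50.5 kb upstream of Ackr3. Ackr4 lies inside Acad11. On both sides of Cxcr4 the neighbours were far, with Dars 171 kb downstream and Thsd7b 681 kb upstream. Its sites were 6 upstream and 1 downstream. The part of this room in the side of the sites was not tested.

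By rank, the sites ran from near the top of the lists to near the bottom. Their scores had a median of 66.2 in replicate 1, with a range of 11.2 to 289.9, and of 30.3 in replicate 2, with a range of 3.56 to 178.3. Over all shared sites the medians were 44.1 and 19.1. The highest 10% of both lists held 5 of the 29 sites, or 17.2%, against 10.6% of all shared sites. These 5 were 2 sites of Ackr4 and 1 each of Ackr3, Ackr2 and Ccrl2. Within a pair, the summits were separated by a median of 10 bp, against 13 bp for all shared sites. The widest pair, of 88 bp, was an Ackr3 site inside 2700003A03Rik, and the closest pair just past the 100 bp limit, at 135 bp, lay inside Ackr3 with scores of 11.9 and 6.13.

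**Figure D3:**
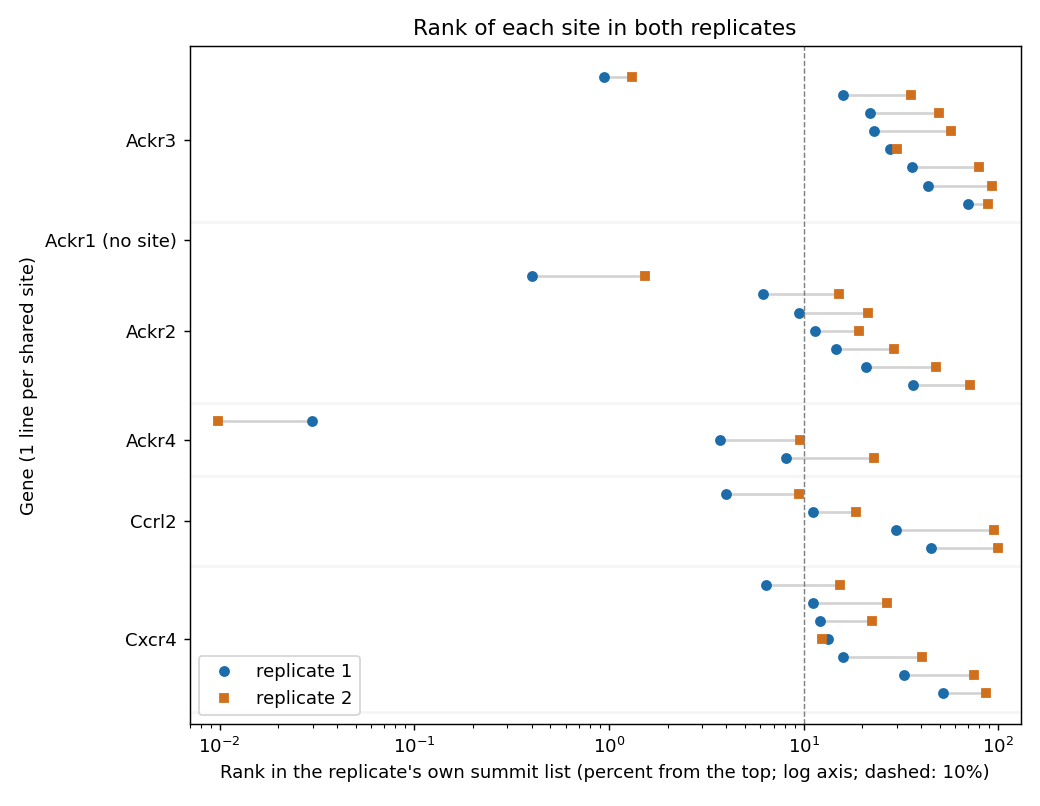
Rank of each of the 29 sites as a percent from the top of its replicate's own summit list (x axis, log scale, dashed line at 10%), with 1 line per site grouped by gene; blue circles are replicate 1 and orange squares replicate 2, joined in grey. The highest Ackr4 site stands apart at 32nd and 6th place, the leading sites of Ackr2 and Ackr3 lie near 1%, and most other sites lie beyond 10% in replicate 2.

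The order of the genes by their highest site held in part between replicates. The Ackr4 site came first in both lists, ahead of those of Ackr2 and Ackr3, then of Ccrl2, then of Cxcr4. Ackr2 and Ackr3 changed places, with ranks of 432 and 1016 in replicate 1 and of 940 and 800 in replicate 2, so their order is not separated from the spread between replicates. Of the summits assigned to the 6 genes, 25 of 54 in replicate 1 had no partner, or 46.3%, against 52.5% of the whole list. In replicate 2 there were 7 of 36 without a partner, or 19.4%, against 16.6%. In replicate 1, Cxcr4 held 14 of the unpaired summits and Ackr3 held 9, with scores of 21.4 at most. In replicate 2 the highest unpaired summit was at Ccrl2, with a score of 23.7.

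By median, sites within 1 kb of a start kept more of their score in replicate 2 than sites farther away did. Scores depend on depth, which is unknown for both lists, so the contrast between places is described and not the size of the ratio. The ratio of the replicate 2 score to the replicate 1 score had a median of 0.621 over the 4 sites within 1 kb of a start, with a range of 0.520 to 0.726. Over the 25 other sites the median was 0.402, with a range of 0.144 to 0.615. These ranges overlapped. The same difference held over the 37254 assignments to protein-coding genes with a listed start, with medians of 0.704 within 1 kb of a start and 0.411 beyond, so it is not particular to these genes.

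The other genes of the chemokine pathway were counted from lists chosen with earlier results of these data known. The median was 5.5 sites per gene for the 6 genes described above, against 0.5 for 16 other chemokine receptors, which signal mainly in leukocytes, and 1 for all protein-coding genes. Of those 16 receptors, 8 had a site and 8 had none, so their median lies midway between 0 and 1 and would move with 1 gene more or less. The share with a site was 50%, against 60.7% of all protein-coding genes. Cxcr5, a receptor of B cells, had 6 sites, and Ccr7, which brings dendritic cells and T cells to lymph nodes, had 5. Ccr1 and Cxcr1 had 2 each. The highest of these sites, of Cxcr1, had scores of 105.5 and 45.6 and lay 12995 bp outside the gene. Ccr2, Ccr3, Ccr4, Ccr6, Ccr8, Cxcr3, Cxcr6 and Xcr1 had 0, as did Ackr1.

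Among 13 ligands and related receptors, 9 had a site, or 69.2%, against 60.7% of all protein-coding genes. The median was 2 per gene. Dpp4, a peptidase that clips CXCL12, had 6 sites. Gpr182, an endothelial receptor reported to bind chemokines, had 3 in a stretch of only 7.29 kb, the highest with scores of 201.9 and 106.5. Cmklr1, the signalling receptor for chemerin, also had 3, and Rarres2, which encodes chemerin, had 2. Cxcl12 itself, named here for being the ligand of CXCR4 and ACKR3, had 2 sites in a stretch of 213 kb, and the higher had scores of 56.9 and 22.9. The ligand gene thus had fewer sites than either of its receptor genes, and its highest site scored below theirs in both replicates. Ccl5, Ccl19, Ccl25 and Cd74 had 0.

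All 10 genes of receptor kinases, arrestins and G proteins, which act downstream of receptors in most tissues, had a site, with a median of 6.5. The share of all protein-coding genes with a site was 60.7%. Gnaq had 27, Grk5 had 13 and Gnai1 had 11, in stretches of 353, 236 and 295 kb. Grk3 and Gnai2 had 7 each. Arrb1, one of the arrestins that carry receptors into the cell, had 6, with the highest at 211.1 and 97.7, and Arrb2 had 1. Per 100 kb, the median was 6.15 for the 6 receptor genes, 5.37 for these signalling genes, 2.35 for the ligands and related receptors and 1.13 for the other chemokine receptors, against 1.55 for all genes. These differences between lists were not tested.

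**Figure D4:**
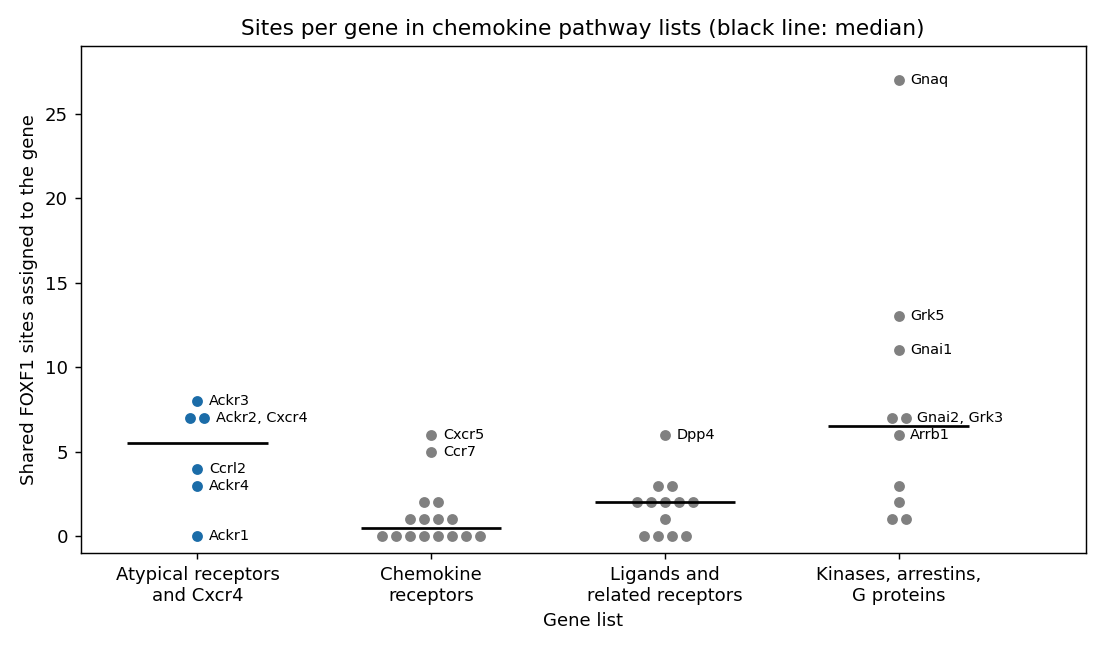
Shared FOXF1 sites per gene (y axis) for the 6 receptor genes (blue) and 3 lists of the chemokine pathway (grey); each point is a gene and each black line a median. The medians are 5.5 for the receptor genes, 0.5 for the other chemokine receptors, 2 for ligands and related receptors and 6.5 for kinases, arrestins and G proteins, where Gnaq stands highest at 27.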

How the data were processed

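Per the submitters' processing notes, the authors used MACS2 and the build mm10. The peak names show 1 list per replicate, called against the control. Each deposited entry is a single-base summit with a score, the authors' −log10 significance; whether of a p or a q value is not stated. The aligner, the MACS2 version and options, duplicate handling and depth are not stated there. The input was common to both lists, and its reads were not used here.

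From these lists, the summits of the autosomes and of X and Y were paired (mutual nearest, at most 100 bp), placed midway, and assigned to RefSeq genes of GRCm38.p6, which shares its coordinates with mm10. The 10 mitochondrial summits of replicate 1 and 6 of replicate 2 were left out. Positions are 1-based. Strands and starts came from the RefSeq table of 32851 promoter windows, and the motif search used the 250 bases before each start. Work was done in Python 3.11.15 with pandas 2.3.3 and numpy 2.4.6, and the pairing and assignment were tested on simulated summits. The members, lists and comparisons were chosen with earlier results of these data known, and the 3 shorter motifs were added after the sequences were seen. The genes named were the 6 members, their flanking protein-coding genes and the up to 4 genes of each list with the most sites; others were named after their values were seen. One gene of the planned receptor list is not reported here. No test was run, since 2 replicates of 1 condition form no contrast. The planned motif search around summits and the comparison of proteins were not run, since no genome or protein sequence was used here. The alternatives tried were other shared distances, a score minimum, the 10000 highest summits, other assignment rules and each replicate alone.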

Additional observations from a re-analysis of the deposited data

How the results depend on the processing

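The count of 5 of 6 genes with a site was the same under all 10 alternatives, and Ackr1 had 0 sites under each of them. The 0 of Ackr1 could not change, since no summit lay within 100 kb of it and no alternative looked farther. A wider pairing distance, or counting every shared site within 100 kb, could not remove a site from the other genes either. The total of 29 sites became 7 among the 10000 highest summits per replicate, and 47 when every shared site within 100 kb of a gene was counted whatever its nearest gene. With 1 replicate left out, all summits of the other were counted without pairing, 36 in replicate 2 alone and 54 in replicate 1 alone. These are not counts of shared sites. Under the other alternatives the total of shared sites lay between 20 and 30. Among the 10000 highest summits, Ackr2 and Ackr4 had 2 sites each and Ackr3, Ccrl2 and Cxcr4 had 1 each. For single genes, 45 of 60 counts stayed within 1.5 times the reported one. These include the 10 counts of Ackr1, which were 0 throughout. Ackr3 moved most often, with 4 sites within 50 kb, 4 within 20 kb, 4 by the ends of all annotated genes, 5 at a score of at least 10 in both replicates, 15 when every shared site within 100 kb was counted and 17 summits in replicate 1 alone, besides the 1 given above. Cxcr4 had 2 sites within 20 kb and 21 summits in replicate 1 alone. No paired analysis was possible because the 2 replicates belong to 1 group and no test was run. Unknown depth limits what a missing summit can show.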
